A study of Mus musculus with 12 samples.

Results

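The genes described here make, carry and trim peptide hormones in endocrine cells. They are the granins Chga, Chgb, Scg2 and Scg3, the convertases Pcsk1 and Pcsk2 with their binding proteins Pcsk1n and Scg5, and the trimming and amidating enzymes Cpe and Pam. These 10 genes were listed by name and function, with no measured value in the rule, although earlier results of these data were known when the list was made, and 9 of them had at least 1 probe set (10 probe sets in all) among 12255 genes tested. Pcsk2 was not analysed here. RNA from 2 mouse tumour lines was measured on 12 Affymetrix arrays to ask what the kinase inhibitor GW8510 does to gene expression in alpha and beta cells of the pancreas. The aTC1 line (alpha cells) and the bTC3 line (beta cells) were each exposed for 5 days. The exposure was to 3.3 µM GW8510 in 0.1% DMSO or to 0.1% DMSO alone. Each of the 4 groups had 3 arrays from separate biological replicates. In its work on alpha cells the paper mentions toxicities at 3.3 µM and used a lower dose in later experiments. A part of toxicity in the values below was not tested. Both lines came from mice that carried the simian virus large T antigen, driven by the glucagon promoter for aTC1 and by the insulin promoter for bTC3, so each stands for 1 immortalised tumour line and all groups carry a transgene of this kind. The growth protocol of the bTC3 samples repeats that of aTC1, which names aTC1 cells and a low-glucose medium, so the medium of bTC3 is uncertain and line and culture conditions cannot be told apart.

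Peptide hormones are made as longer precursors that enter the dense-core secretory granule together with the granins, acidic proteins that aggregate in the trans-Golgi network and help to form the granule. Inside it, the convertases encoded by Pcsk1 (PC1/3) and Pcsk2 (PC2) cut the precursor at pairs of basic residues, carboxypeptidase E removes the basic residues that remain, and peptidylglycine alpha-amidating monooxygenase turns a C-terminal glycine into an amide. Beta cells use PC1/3 and PC2 to make insulin from proinsulin, and alpha cells use PC2 to make glucagon from proglucagon. Pcsk1n encodes proSAAS, an inhibitor of PC1/3, and Scg5 encodes 7B2, the chaperone and inhibitor of PC2.

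Many genes of this pathway answer to cyclic AMP, so the bases before their transcription starts are shown for the 5 members in which a core cyclic AMP response element lay within the last 100 bases. Sequences are from RefSeq (GRCm38.p6), which gave a promoter for 8 of the 9 measured members and none for Cpe, and they run 5′ to 3′ on the strand of the gene up to the base before the start. The capitals mark TGACGTCA, the palindromic element, or TGACG, its core, searched on both strands. The palindrome holds the core on both strands. The windows lie at chr12:102554841-102554940 (plus strand) for Chga, chr2:132781542-132781641 (plus) for Chgb, chr1:79440027-79440126 (minus) for Scg2, chr9:75684057-75684156 (minus) for Scg3 and chr13:75089757-75089856 (plus) for Pcsk1.
Chga: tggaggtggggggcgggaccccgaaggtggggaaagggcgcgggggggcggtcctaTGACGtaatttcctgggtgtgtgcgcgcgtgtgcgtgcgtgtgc
Chgb: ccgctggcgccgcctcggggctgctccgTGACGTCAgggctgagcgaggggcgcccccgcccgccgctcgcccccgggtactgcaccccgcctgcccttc
Scg2: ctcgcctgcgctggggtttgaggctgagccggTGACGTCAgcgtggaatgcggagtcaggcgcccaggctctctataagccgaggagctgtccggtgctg
Scg3: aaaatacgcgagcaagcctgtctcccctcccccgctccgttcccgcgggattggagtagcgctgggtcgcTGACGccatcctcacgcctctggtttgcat
Pcsk1: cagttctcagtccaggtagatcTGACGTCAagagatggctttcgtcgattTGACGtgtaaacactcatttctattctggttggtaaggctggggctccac

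The palindrome began 72 bases before the start in Chgb, 68 in Scg2 and 78 in Pcsk1. Within 300-base promoters, from 250 bases before to 50 after the start, it was found in these 3 of 8 members. Over all genes it was found in 588 of 32851 promoter windows (1.79%). A member counted if any of its windows matched, while the shares over all genes are by window, and a gene can have several. The core, inside the palindrome or apart from it, was found in 6 of 8 members, the sixth being Scg5, against 20.81% of all promoter windows. In the 100 bases shown, the core was present in 5 of 8 members against 10.48% of all windows of that length. Such a match is a run of letters and was not tested for binding.

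The arrays were alike in brightness, with median intensities of 173.7 to 182.0 on 11 arrays and 199.9 on replicate 3 of GW8510-treated bTC3, and the values were bounded at 20 and 20000. The alpha markers Gcg (at 20000 on every aTC1 array), Irx1 (2084 ± 86.4 in untreated aTC1, SD, n = 3) and Irx2 (1881 ± 46.1) were high in aTC1, and the beta markers Ins2 and Iapp were at 20000 on every bTC3 array, with Pdx1 at 3276 ± 114 in untreated bTC3. Between the untreated lines 4 of 5 measured alpha markers were higher in aTC1, the exception being Ttr (8351 ± 511 in aTC1 and 20000 on every bTC3 array), and all 6 measured beta markers were higher in bTC3, though Slc2a2 read only 87.5 ± 4.75 there. Some of these markers moved with GW8510 treatment. In aTC1 the beta markers Ins2, Iapp and Pdx1 rose, from 96.8 to 153, from 140 to 382 and from 70.8 to 374. The other 3 measured beta markers did not pass the test given below. Nkx6-1 went from 423 to 375, Slc2a2 from 23.9 to 22.4 and G6pc2 from 1629 to 1827. The alpha markers there went both ways. Ttr rose from 8351 to 19884 and Pou3f4 from 520 to 977, while Irx1 fell from 2084 to 1213 and Irx2 from 1881 to 1377. In bTC3, Slc2a2 rose from 87.5 to 3037, while Pdx1 fell from 3276 to 2851 and Nkx6-1 from 1042 to 869. G6pc2 did not pass there, and Ins2 and Iapp could show no change at the upper bound. The bTC3 line also carried Gcg at 6420 ± 367, which rose with GW8510 treatment to 12041 ± 798, and Sst, the somatostatin gene, at 17819 ± 646, which reached the upper bound on all 3 treated arrays. Of 5 macrophage markers, Ptprc was at the lower bound of 20 on all arrays of 3 groups and at a mean of 21.2 in the fourth. Csf1r had group means of 111 to 127, and the summed level of the 5 was 274 to 388 on all arrays. The fibroblast and endothelial list (6 genes) summed to 333 to 430 in the other groups and to 527 to 645 in treated bTC3, where Col1a2 rose from 157 ± 15.6 to 292 ± 31.3. The part of these cell type markers in the values below was not tested.

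In aTC1, GW8510 treatment up-regulated 4 of the 9 measured members (Chga, Scg2, Scg3 and Pcsk1n) and down-regulated 4 (Chgb, Scg5, Cpe and Pam), while Pcsk1 did not pass the test. In bTC3 no member was up-regulated, 6 were down-regulated (Chga, Chgb, Scg5, Pcsk1n, Cpe and Pam) and 3 did not pass (Scg2, Scg3 and Pcsk1, none of them at an unadjusted p under 0.05 either). A gene was called changed at an adjusted p under 0.05 by limma with Benjamini-Hochberg adjustment over all genes tested. By that measure 41.3% of all genes changed in aTC1, 20.2% upward and 21.2% downward, and 34.1% changed in bTC3, 19.7% upward and 14.3% downward. The median difference of the members, treated minus DMSO on the log2 scale, was 0.12 in aTC1 beside 0.03 over all genes, and -0.27 in bTC3 beside 0.07. With 4 members up and 4 down, the aTC1 median is the value of Pcsk1, whose signal there was near the lower bound.

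**Figure D1:**
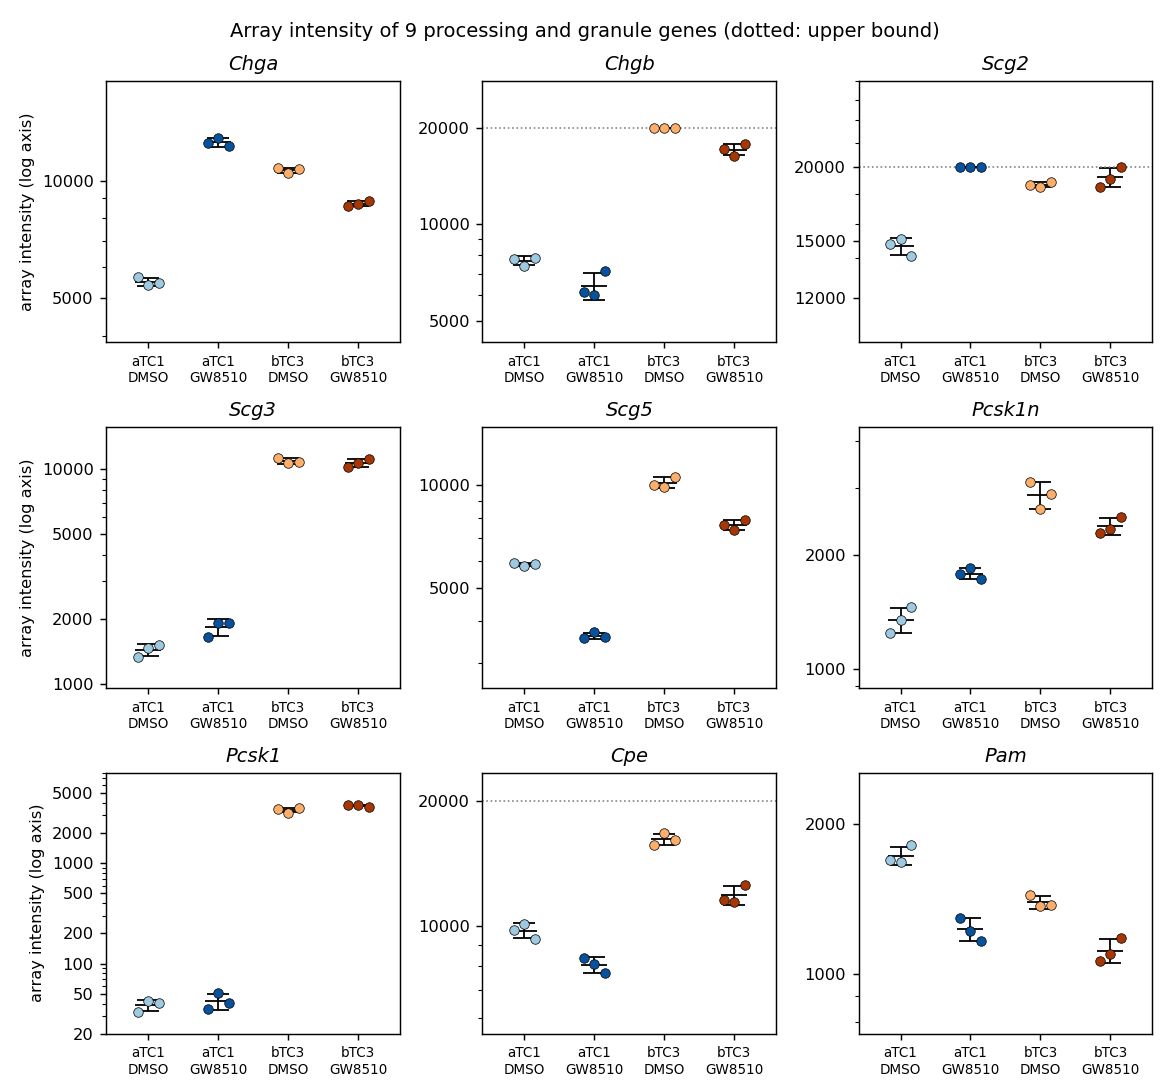
Array intensity (log axis) of each of the 9 measured genes on every array, in aTC1 and bTC3 with DMSO or GW8510. Points are arrays, bars are the mean ± SD (n = 3), the dotted line is the upper bound of 20000, and each panel has its own scale; Chga rose in aTC1 and fell in bTC3, while Pcsk1 stayed at 33.1 to 51.0 on all aTC1 arrays.

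Chga encodes chromogranin A, the granin that promotes granule formation and is cut into several regulatory peptides. Its intensity was 5660, 5406 and 5486 on the untreated aTC1 arrays and 12478, 12832 and 12225 on the treated ones. In bTC3 it was 10757, 10451 and 10673 without and 8598, 8686 and 8850 with GW8510. The 4 groups did not overlap, and their order ran from treated aTC1 through untreated and treated bTC3 to untreated aTC1. The rise in aTC1 was 2.27-fold (log2 difference 1.18, SE 0.05, adjusted p = 2.61e-09, limma), and 3.37% of all genes had a larger absolute difference there. The fall in bTC3 was by 0.29 on the log2 scale (SE 0.05, adjusted p = 4.82e-04, limma), to 0.820 of the DMSO level. The 2 responses differed by 1.47 (95% interval 1.32 to 1.61, adjusted p = 2.41e-08, limma interaction term), a difference exceeded by 1.75% of all genes, where 28.5% of genes passed this test.

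Chgb encodes chromogranin B, a granin that binds calcium and is stored with the hormones. It was 7798, 7401 and 7865 in untreated and 6145, 5995 and 7139 in treated aTC1. All untreated bTC3 arrays were at the upper bound of 20000, and the treated ones read 17198, 16357 and 17773. The treated arrays were below the untreated ones in both lines, with no overlap. The fall in aTC1 was by 0.26 on the log2 scale (SE 0.07, adjusted p = 0.00774, limma). For bTC3 the bound leaves only a limit: the DMSO level was at least 1.17-fold higher (adjusted p = 0.0225, limma), a call that was lost on leaving out any 1 of the 3 DMSO arrays (adjusted p = 0.0532 to 0.0601) or replicate 2 of the treated arrays (adjusted p = 0.0774). Arrays at a bound show no spread, which lowers the error estimated for that gene.

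Scg2 encodes secretogranin II, the precursor of secretoneurin. It read 14795, 15127 and 14138 in untreated aTC1 and was at the bound of 20000 on all 3 treated arrays. Treatment therefore raised Scg2 at least 1.36-fold in aTC1 (adjusted p = 1.37e-05, limma). In bTC3 it read 18656, 18530 and 18862 without and 18538, 19115 and 20000 with GW8510, the groups overlapped, and the log2 difference was 0.04 (95% interval -0.07 to 0.15, adjusted p = 0.572, limma). The difference between the responses, 0.41, passed the test (adjusted p = 9.69e-04, limma) with 4 of the 6 treated arrays at the bound.

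Scg3 encodes secretogranin III, which links chromogranin A to the cholesterol-rich granule membrane. Its intensity was 1338, 1461 and 1513 in untreated aTC1 and 1651, 1929 and 1927 in treated aTC1, with no overlap. The bTC3 arrays read 11279, 10670 and 10876 without and 10242, 10705 and 11137 with treatment, and these groups overlapped. GW8510 raised Scg3 1.28-fold in aTC1 (log2 difference 0.35, SE 0.07, adjusted p = 0.00184, limma), and in bTC3 the difference was -0.03 (95% interval -0.19 to 0.13, adjusted p = 0.760, limma). The responses differed by 0.38 (adjusted p = 0.0148, limma). Of the 3 members with the palindrome shown above, Chgb fell and Scg2 rose in aTC1, and Pcsk1 did not pass the test. A part of the element in these values was not tested.

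The convertase gene Pcsk1 separated the lines most widely of all the members. It read 33.1, 42.1 and 40.4 in untreated aTC1 and 35.4, 51.0 and 40.5 in treated aTC1, where 12.5% to 23.3% of probe sets on the same array were dimmer. In bTC3 it read 3512, 3179 and 3514 without and 3816, 3774 and 3677 with GW8510. The treated and untreated arrays overlapped in aTC1 and did not in bTC3, and neither difference passed the test (log2 0.12, 95% interval -0.14 to 0.39, adjusted p = 0.470 in aTC1, and 0.14, -0.12 to 0.41, adjusted p = 0.401 in bTC3, limma). With arrays weighted by their quality the aTC1 difference was 0.33 and passed (adjusted p = 0.00958, limma), at a signal near the floor of these arrays.

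Pcsk1n, which encodes the PC1/3 inhibitor proSAAS, read 1245, 1343 and 1453 in untreated and 1778, 1844 and 1723 in treated aTC1. The bTC3 arrays read 3112, 2637 and 2887 without and 2280, 2335 and 2513 with treatment. The groups did not overlap in either line, and they moved in opposite directions. The rise in aTC1 was 1.33-fold (log2 difference 0.41, SE 0.08, adjusted p = 8.79e-04, limma). The fall in bTC3, to 0.826 of the DMSO level (log2 difference -0.27, SE 0.08, adjusted p = 0.0147, limma), was no longer called without replicate 1 of the DMSO arrays (adjusted p = 0.0698) or of the treated arrays (adjusted p = 0.0544). The responses of the lines differed by 0.68 (95% interval 0.45 to 0.92, adjusted p = 5.37e-04, limma).

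Scg5, which encodes the PC2 chaperone 7B2, fell in both lines. Its intensity was 5893, 5793 and 5873 in untreated aTC1 and 3558, 3698 and 3589 in treated aTC1. In bTC3 it was 10020, 9882 and 10568 without and 7622, 7357 and 7871 with GW8510, so that no groups overlapped. Treatment left 0.618 of the DMSO level in aTC1 (log2 difference -0.70, SE 0.05, adjusted p = 3.43e-07, limma), and 0.750 in bTC3 (-0.42, SE 0.05, adjusted p = 5.35e-05, limma). The fall was larger in aTC1, by a log2 difference of -0.28 (95% interval -0.43 to -0.13, adjusted p = 0.0104, limma).

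**Figure D2:**
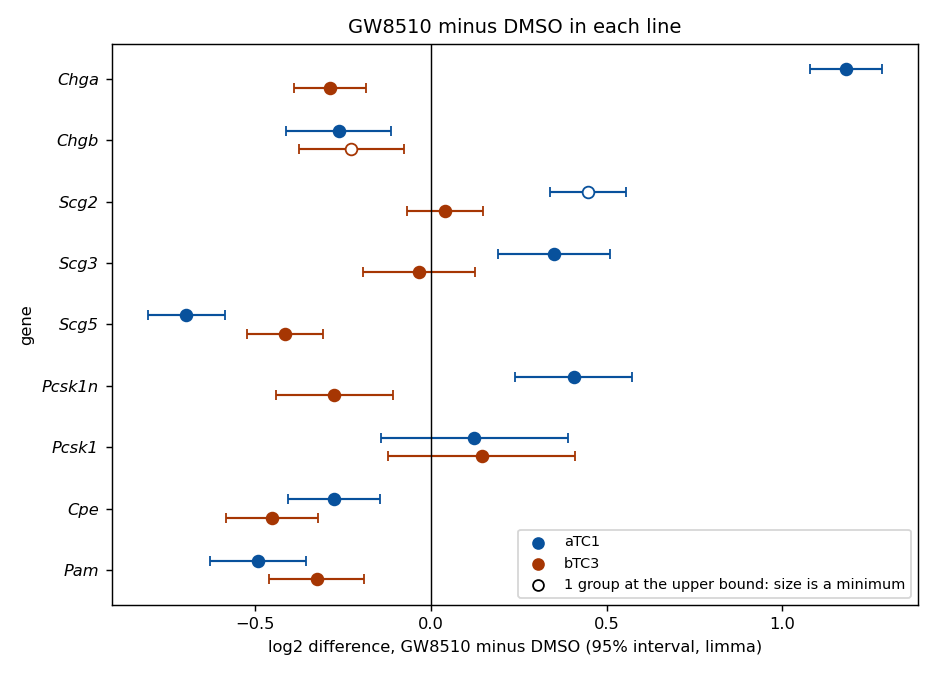
Log2 difference, GW8510 minus DMSO, of each gene in aTC1 (blue) and bTC3 (brown), with the 95% interval from limma (3 arrays against 3). Open points mark a comparison with 1 group at the upper bound, whose size is a minimum; Chga (1.18 and -0.29) and Pcsk1n (0.41 and -0.27) lie on opposite sides of 0.

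Cpe encodes carboxypeptidase E, which also takes part in sorting precursors into granules. It read 9785, 10100 and 9306 in untreated and 8366, 8073 and 7676 in treated aTC1, and 15701, 16742 and 16084 in untreated and 11516, 11432 and 12566 in treated bTC3. Treated arrays were below untreated ones in both lines, with no overlap. The fall was by 0.28 on the log2 scale in aTC1 (SE 0.06, adjusted p = 0.00246, limma) and by 0.45 in bTC3 (SE 0.06, adjusted p = 1.12e-04, limma). The difference between the falls was 0.18 (95% interval -0.01 to 0.36, adjusted p = 0.153, limma), and it passed under 3 of the other settings (adjusted p = 0.0265 to 0.0492). A second Cpe probe set read 35.3 to 45.1 on all 12 arrays with all groups overlapping, and averaging both probe sets took the aTC1 difference to -0.11 (adjusted p = 0.197, limma).

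Pam, the amidating enzyme, read 1689, 1674 and 1811 in untreated aTC1 and 1295, 1220 and 1165 in treated aTC1. In bTC3 it read 1439, 1364 and 1371 without and 1059, 1094 and 1181 with GW8510. Treated and untreated arrays did not overlap in either line. Treatment left 0.711 of the DMSO level in aTC1 (log2 difference -0.49, SE 0.06, adjusted p = 4.04e-05, limma) and 0.798 in bTC3 (-0.32, SE 0.06, adjusted p = 0.00156, limma). The difference between these falls was -0.17 and did not pass (95% interval -0.36 to 0.02, adjusted p = 0.194, limma).

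Over the members, treated and untreated arrays did not overlap for 8 of 9 genes in aTC1, where this held for 51.4% of all genes, and for 7 of 9 in bTC3, where it held for 45.9%. The interaction term was called for 5 of 9 members, 4 with the higher response in aTC1 (Chga, Scg2, Scg3 and Pcsk1n) and 1 with the lower (Scg5), beside 12% and 16.4% of all genes. For Chgb the term was not called (-0.04, adjusted p = 0.842, limma). Its untreated bTC3 arrays were at the upper bound, so this does not show equal responses of Chgb in the lines. The 2 sets of untreated arrays enter both the treatment and the line comparisons, so those comparisons share samples.

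Without GW8510, 8 of the 9 members were higher in bTC3 than in aTC1, and Pam was higher in aTC1. Over all genes 55.7% were called between the untreated lines, 28.9% higher in aTC1 and 26.8% higher in bTC3. Pcsk1 stood furthest apart, 88.6-fold higher in bTC3 (log2 difference aTC1 minus bTC3 -6.47, SE 0.12, adjusted p = 1.06e-12, limma), and 0.180% of all genes had a larger absolute difference. This ratio rests on an aTC1 signal close to the lower bound, and a pseudocount of 16 moved the log2 difference to -5.97. Scg3 was 7.62-fold higher in bTC3 (log2 difference -2.93, SE 0.07, adjusted p = 1.06e-11, limma), and 1.78% of all genes differed more. Chgb was at least 2.60-fold higher (adjusted p = 3.52e-09, limma), Pcsk1n 2.14-fold, Chga 1.93-fold, Scg5 1.73-fold, Cpe 1.66-fold and Scg2 1.27-fold higher. Pam was 1.24-fold higher in aTC1 (log2 difference 0.31, SE 0.06, adjusted p = 9.12e-04, limma). No array of one line overlapped with those of the other for any of the 9 members, beside 65.8% of all genes.

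**Figure D3:**
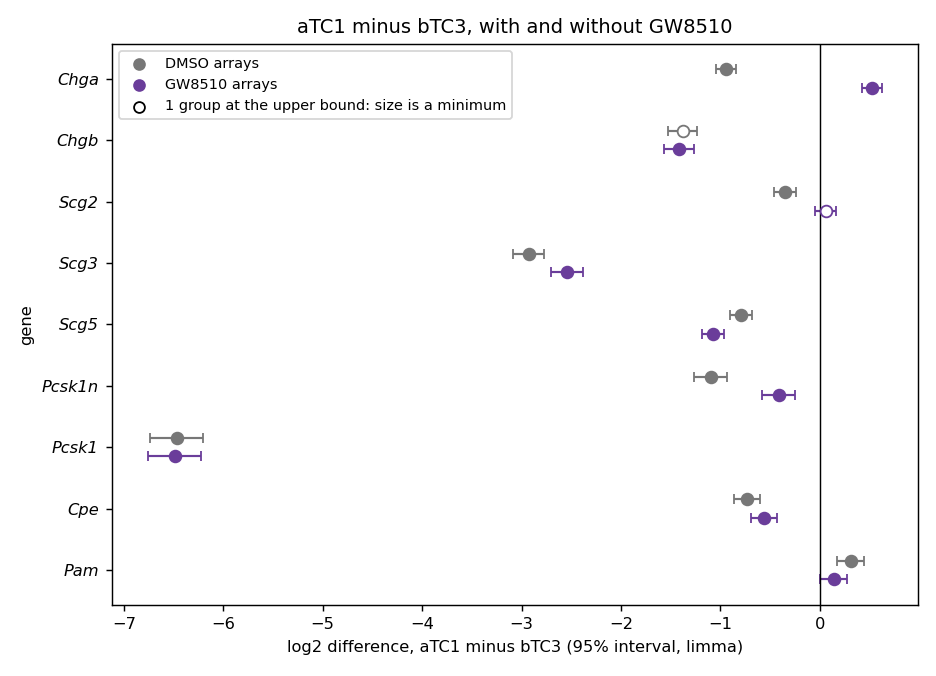
Log2 difference, aTC1 minus bTC3, of each gene on the DMSO arrays (grey) and on the GW8510 arrays (purple), with the 95% interval from limma (3 arrays against 3). Open points mark a comparison with 1 group at the upper bound; Chga passed from -0.95 to 0.52, and Pcsk1 lay at -6.47 and -6.49.

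With GW8510, 6 members were higher in bTC3 than in aTC1, Chga was higher in aTC1, and Scg2 and Pam did not pass the test, where 57.9% of all genes were called, 27.5% higher in aTC1 and 30.4% higher in bTC3. The arrays of the treated lines did not overlap for 7 of 9 members, beside 59.2% of all genes. The line order of Chga was reversed: treated aTC1 was 1.44-fold above treated bTC3 (log2 difference 0.52, SE 0.05, adjusted p = 7.18e-07, limma). The gap of Pcsk1n was smaller than without treatment, 1.33-fold higher in bTC3, and that of Scg3 was 5.84-fold. For Scg5 the gap was wider, 2.11-fold. Pcsk1 was 89.8-fold higher in bTC3 (log2 difference -6.49, SE 0.12, adjusted p = 9.31e-13, limma), with a change of the gap of -0.02 (95% interval -0.40 to 0.36). Chgb was 2.67-fold and Cpe 1.47-fold higher in bTC3. The arrays of Scg2 overlapped between the treated lines at the bound. Those of Pam overlapped too, with a log2 difference of 0.14 (adjusted p = 0.0701, limma) that passed under 5 of the other settings (adjusted p = 0.00475 to 0.0433), among them the removal of replicate 3 of treated aTC1 or of treated bTC3. The median of the members, aTC1 minus bTC3, was -0.95 without and -0.56 with treatment, beside 0.05 and 0.00 over all genes.

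Across the 4 groups, the members fell into several orders of level. Chgb, Scg5 and Cpe ran from untreated bTC3 through treated bTC3 and untreated aTC1 to treated aTC1, with no overlap between neighbours. Pcsk1n and Scg3 ran from untreated bTC3 through treated bTC3 and treated aTC1 to untreated aTC1, and only the bTC3 groups of Scg3 overlapped. Pam ran from untreated aTC1 through untreated bTC3 and treated aTC1 to treated bTC3, and its 2 treated groups overlapped. Pcsk1 ran from treated bTC3 through untreated bTC3 to the aTC1 groups, which overlapped. Scg2 ran from treated aTC1 through treated and untreated bTC3 to untreated aTC1, with overlap between treated aTC1 and treated bTC3 and between the bTC3 groups, and none between treated aTC1 and untreated bTC3.

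The genes most like the 3 members of widest range were taken by Pearson's r of log2 values over the 12 arrays, which share the split between the lines. For Pcsk1 these were 2210016F16Rik, H2-D1 and Gnai1 (r = 0.999 for each). Gnai1, a subunit of the inhibitory G protein, read 28.2 and 29.2 in untreated and treated aTC1 and 3196 and 2982 in bTC3. For Scg3 they were Atp1b3, Me1 and Pdia6 (r = 0.999 for each), and Pdia6, a disulfide isomerase of the endoplasmic reticulum, read 1815 and 1976 in aTC1 and 8603 and 8375 in bTC3. For Chgb they were Gnaz (r = 0.998), Ngly1 and 0610040J01Rik (r = 0.997 for both). Only genes other than the members and at no bound on any array were compared. Chgb itself was at the upper bound on all 3 untreated bTC3 arrays, so its r values rest on a profile cut off there. Gnaz, another inhibitory G protein subunit, read 111 and 77.7 in aTC1 and 734 and 579 in bTC3.

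Other genes of the pathway were read in 7 lists written from general knowledge, with a median of 0.03 in aTC1 and 0.07 in bTC3 over all genes. The counts in the lists stand beside 20.2% of all genes that rose and 21.2% that fell in aTC1, and 19.7% that rose and 14.3% that fell in bTC3. Of 6 other proprotein convertases, 1 rose and 2 fell in aTC1, and 1 rose and 1 fell in bTC3. Mbtps1, the site-1 protease of the Golgi, fell by 1.01 on the log2 scale in aTC1 (adjusted p = 1.43e-07, limma) and by 0.69 in bTC3 (adjusted p = 8.99e-06, limma), while its 2 dimmer probe sets gave -0.88 and -0.26, and -0.11 and 0.00. Pcsk7, a convertase of the constitutive pathway, rose by 0.35 and 0.25. Pcsk6, also a constitutive convertase, fell by 0.51 in aTC1 and had a difference of 0.24 in bTC3 that did not pass.

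A broad list held 17 genes of other peptide trimming enzymes and their relatives, not all of them of the granule. Of these, 9 rose and 1 fell in aTC1 (median 0.35), and 6 rose and none fell in bTC3 (median 0.12). Over all genes 20.2% were up and 21.2% down in aTC1, and 19.7% up and 14.3% down in bTC3. In bTC3 0 fell at an unadjusted p under 0.05 by limma. Qpctl, a glutaminyl cyclase of the Golgi, rose by 1.33 in aTC1, from 162 to 405, and by 0.80 in bTC3, from 259 to 453 (adjusted p = 1.32e-04 in bTC3, limma). Cpz, a carboxypeptidase of the same family as Cpe, rose by 2.38 in aTC1, from 36.2 to 189 (adjusted p = 2.09e-06, limma), and its difference in bTC3 was -0.18 and did not pass. Cpn1, the plasma carboxypeptidase N, rose from 43.1 to 97.8 in aTC1 and from 3961 to 6551 in bTC3. Ctsl, the lysosomal protease cathepsin L, which can also cut prohormones, rose by 0.95 and 0.54. Cpe and Pam fell in both lines, and the 1 enzyme of this list that fell in aTC1 was Ece1, an endothelin-converting enzyme (-0.46), named here after its value was seen.

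Among 21 peptide precursors, 3 rose and 3 fell in aTC1 and 2 rose and 2 fell in bTC3. Cartpt, the precursor of the CART peptides, fell from 763 to 108 in aTC1 (log2 difference -2.82, SE 0.16, adjusted p = 5.63e-08, limma) and from 136 to 94.1 in bTC3. Iapp, the amylin precursor that is stored with insulin, rose 2.73-fold in aTC1, from 140 ± 8.88 to 382 ± 41.7. Pomc fell by 0.73 in aTC1 and had a difference of 0.14 in bTC3. Gcg was at the upper bound on all aTC1 arrays, and Ins2, Iapp and Npy were at it on all bTC3 arrays, so these genes have no difference there and stand among those not called.

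Of 11 granule membrane genes, 3 rose and 3 fell in aTC1 and 4 rose and 4 fell in bTC3. Ptprn2 (phogrin), a membrane protein of the dense-core granule, fell by 1.53 in aTC1 and by 1.73 in bTC3, from 241 to 83.4 and from 348 to 106 (adjusted p = 1.01e-06 and 1.26e-06, limma). Sv2a, a vesicle glycoprotein, fell by 0.81 and 0.97. Resp18, a granule protein related to Ptprn, fell by 0.92 in bTC3 and had a difference of -0.13 in aTC1 that did not pass, and the responses differed by 0.79 (adjusted p = 2.41e-05, limma). Cyb561, which carries electrons into the granule for the amidating enzyme, fell by 0.41 in aTC1 and rose by 0.76 in bTC3, and these responses differed by -1.17 (adjusted p = 2.63e-06, limma).

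The vacuolar proton pump, which acidifies the granule and the lysosome, was measured by 19 subunit genes, of which 10 rose and 3 fell in aTC1 (median 0.23) and 9 rose and 2 fell in bTC3 (median 0.21). Over all genes 20.2% rose and 21.2% fell in aTC1, and 19.7% rose and 14.3% fell in bTC3. Atp6v1e1 rose by 0.56 and 0.52 and Atp6v0b by 0.23 and 0.58. Atp6v1g2, the neuronal form of its subunit, fell by 0.93 and 0.59. Atp6v0a4 rose by 0.83 in bTC3, from 31.8 to 57.3, with a difference of 0.14 in aTC1 that did not pass.

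Of 16 genes for granule budding and maturation, 4 rose and 6 fell in aTC1 and 3 rose and 4 fell in bTC3. Ica1, an autoantigen of the Golgi and immature granule, fell by 0.96 and 0.32, and Ap1s2, a subunit of the clathrin adaptor that retrieves membrane from immature granules, by 0.90 and 0.17. The SNARE gene Vti1a fell by 0.75 in aTC1 and had a difference of -0.21 in bTC3 that did not pass, as did Eipr1, a partner of the EARP complex, with -0.65 and -0.21.

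Of 8 listed regulators of granule genes, none rose and 3 fell in aTC1, and none rose and 2 fell in bTC3, with medians of -0.23 and 0.02. Of all genes, 21.2% fell in aTC1 and 14.3% in bTC3. At an unadjusted p under 0.05 by limma, 0 were higher with treatment in aTC1 and 2 in bTC3. Nkx2-2 fell by 1.30 in aTC1, from 1340 to 542, and by 0.43 in bTC3 (adjusted p = 1.28e-08 and 2.26e-04, limma). Pax6, an activator of islet hormone and Pcsk1 genes, fell by 0.95 and 0.22, and its other probe sets ran from -1.10 to 0.13 in aTC1. Foxa2 fell by 0.60 in aTC1 and had a difference of 0.15 in bTC3 that did not pass. The responses of all 3 were lower in aTC1 than in bTC3 by the interaction term (differences of -0.87, -0.73 and -0.76, adjusted p = 1.72e-05, 2.43e-05 and 7.70e-05, limma).

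For several of these genes a dimmer probe set gave another size. In aTC1 and bTC3 the other probe set read 1.45 and 0.21 for Qpctl, -0.27 and 0.28 for Pomc, and -0.27 and 0.16 for Vti1a. The dimmest of the 4 Iapp probe sets read 0.59 and -0.36, and 2 further probe sets of Ap1s2 lay near the lower bound with differences of 0.01 and 0.11 in aTC1.

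**Figure D4:**
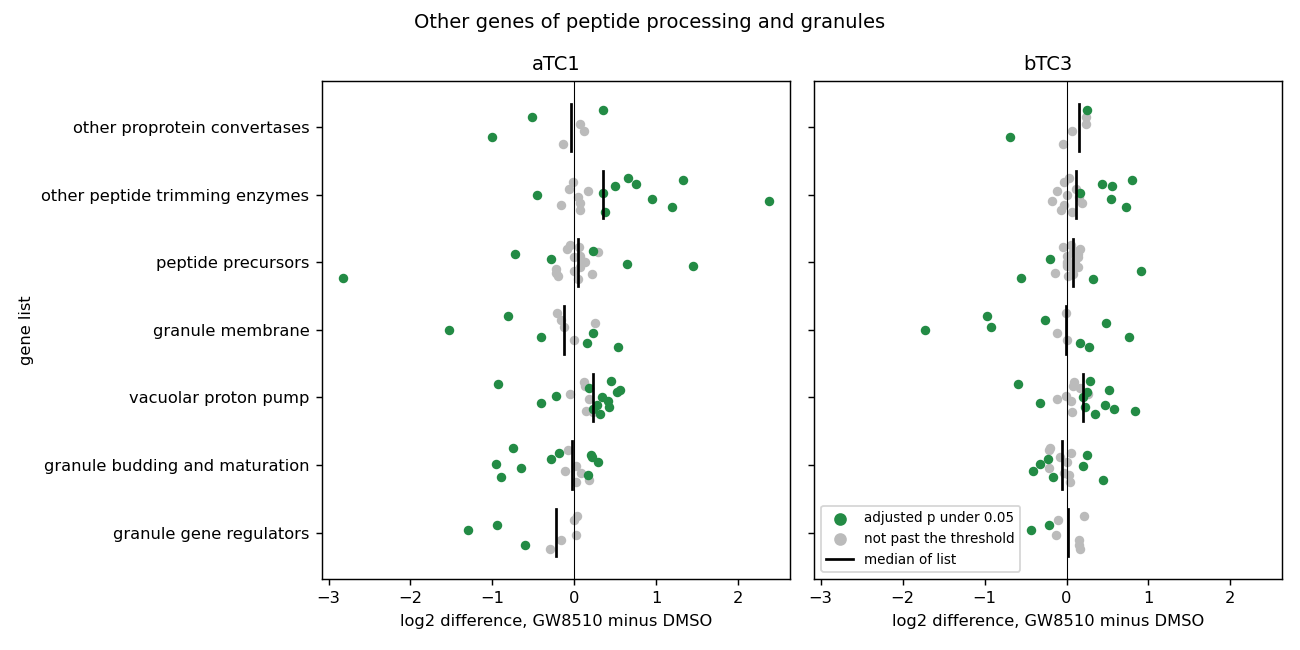
Log2 difference, GW8510 minus DMSO, of the other genes of peptide processing and granules in aTC1 (left) and bTC3 (right), 1 point a gene and 1 row a list. Green points passed an adjusted p under 0.05 (limma), grey points did not, black bars are list medians, and genes at the upper bound in both groups lie at 0; the trimming enzymes and the proton pump have medians of 0.35 and 0.23 in aTC1.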

How the data were processed

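RNA from 12 cultures was hybridised to mouse Affymetrix arrays of 22690 probe sets. The deposited values are linear intensities that the authors made with RMA (version not given in the sources used here), and they lie between 20 and 20000, bounds taken to be the authors'. Here log2 was taken with no pseudocount. Of the probe sets, 64 were controls, 691 carried several gene symbols and 1555 none in the annotation used. Another 330 were at 1 bound on all arrays. Each gene was read from its probe set of highest mean, which left 12255 genes, 4854 of them with several probe sets. The 4 group means were fitted over all 12 arrays with limma 3.58.1 in R 4.3.3 and empirical Bayes (8 residual and 3.52 prior degrees of freedom, median residual SD 0.11 and median SE of a treatment difference 0.08, log2). Contrasts were treated minus DMSO in each line, their difference, and aTC1 minus bTC3 with and without treatment. The fit was tested on simulated data that had no bounds and held changes only in treated aTC1. That test does not cover genes with arrays at a bound. A group at the upper bound on all arrays gives a limit, written as at least N-fold. The number of arrays limits the precision, and p-values measure the spread between replicates labelled biological. The members and gene lists were chosen with earlier results of these data known. Of each list, up to 4 called genes with the largest treatment difference are named. The source names of treated replicates 2 and 3 end in another compound number, while titles, descriptions and compound labels all read GW8510, which was followed. Other settings tried were quantile normalization, other choices of probe set, removal of the dimmest 25% of genes, a fit of the compared groups alone, a trended and robust prior, weighting of arrays, adding 1 or 16 before the log, blocking on replicate number, and omission of single arrays.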

Additional observations from a re-analysis of the deposited data

Results flagged for a closer look

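For 5 members the response to GW8510 differed between the lines by the interaction term of limma, given here as the aTC1 difference minus the bTC3 difference on the log2 scale. The values were 1.47 for Chga (1.18 against -0.29), 0.68 for Pcsk1n (0.41 against -0.27), 0.41 for Scg2 (0.45 against 0.04, with arrays at the upper bound), 0.38 for Scg3 (0.35 against -0.03) and -0.28 for Scg5 (-0.70 against -0.42). The adjusted p was 2.41e-08, 5.37e-04, 9.69e-04, 0.0148 and 0.0104 in that order. Each kept its call under all 22 other settings run for it.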

How the results depend on the processing

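The 45 differences of the members were recomputed under 23 other settings, which gave 1026 values. Of these, 1010 kept their side of the threshold, 7 lost the call, 9 gained it and none of the called differences turned its sign. The sign turned in 8 of the 1010, all of differences not called under either setting: the Pcsk1 difference in aTC1 and the differences between lines of Pcsk1 and Chgb. The 6 differences whose call changed are those given beside Chgb, Pcsk1n, Pcsk1, Cpe (both its aTC1 fall and the difference between lines) and Pam. Testing every probe set on its own raised the number of features called to 7946 (aTC1), 6487 (bTC3), 5242 (their difference), 11135 (untreated lines) and 11485 (treated lines) from 5066, 4174, 3488, 6829 and 7095 genes, with more features tested. With 1 array left out these counts were 4481 to 5440, 3376 to 4542, 2966 to 3612, 6333 to 7132 and 6775 to 7051. The members called were 7 to 9, 4 to 6, 5 to 6, 9 and 7 to 8 over all settings. Replicate numbers are shared between groups. Deviations of same-numbered arrays correlated between -0.14 and 0.14, and those of differently numbered arrays between -0.21 and 0.17. The paper took fold changes over matched DMSO controls. Such correlations cannot tell whether same-numbered cultures were matched, and the main fit used no pairing. With a replicate block 4885, 3913, 3226, 6685 and 6965 genes were called, and no member changed its call. The difference between lines needs all groups, so the fit of compared groups alone was not run for it. The bounds hide any further rise of Scg2 in aTC1 and any Chgb level above 20000, and Pcsk1 in aTC1 is too dim for a firm ratio.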
